A study of Mus musculus with 6 samples.

Results

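The pyruvate dehydrogenase complex links glycolysis to the mitochondrial oxidation of carbohydrate, and its activity in muscle is set by kinases that switch it off and phosphatases that switch it on. A set of 10 genes of this system, chosen by symbol, were followed: the subunit genes Pdha1, Pdhb and Dlat, the kinase genes Pdk1, Pdk2, Pdk3 and Pdk4, the phosphatase genes Pdp1 and Pdp2, and the pyruvate carrier gene Mpc1. These were 10 of 35491 named entries, and all 10 were found and passed the filter of a mean of at least 1. Gastrocnemius, a calf muscle of mixed but mainly fast fibres, was taken from 3 Control and 3 Ogg1Tg male mice aged 20 weeks, fed chow, all on the C57BL/6J background. The Ogg1Tg mice carry a transgene for human OGG1-1a, a DNA glycosylase that removes oxidized guanine, joined to a mitochondrial translocation signal and driven by the CMV/AG promoter. The transgene is human and was not measured here; the endogenous mouse Ogg1 gene had 154, 225 and 193 units in Control and 176, 201 and 193 in Ogg1Tg, so the groups overlapped.

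Values are the deposited signal, a gene's read count divided by a factor of its library, and are called units below. They compare a gene between libraries, and genes with each other only after division by transcript length. Named genes held 45189860 to 56126407 reads per library. The library of Ogg1Tg replicate 3 stood apart: its rank correlation with the other 5 libraries was 0.946 to 0.953, against 0.975 to 0.983 among those 5, and its summed signal was the lowest of the 6. The summed signal of 14 lymphocyte and neutrophil markers was 247 to 339 units in Control, 283 and 243 in Ogg1Tg replicates 1 and 2 and 17148 in replicate 3. The 8 adipocyte markers summed to 3785 to 4222 units in Control and 3523, 3215 and 11322 in Ogg1Tg. The 12 skeletal muscle fibre markers summed to 8057420 to 10304236 units in Control and to 7655476, 9709098 and 5166695 in Ogg1Tg, so the labelled tissue was muscle in every library. None of these markers was at 0 in all 6 libraries. The fold changes are therefore also given without this library, and the part of other cell types in these values was not tested.

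The complex is built from many copies of an E1 enzyme that decarboxylates pyruvate, an E2 core that passes the acetyl group to coenzyme A on a lipoyl arm, and an E3 enzyme that restores the arm. Phosphorylation of serines on the E1 alpha subunit stops the complex, and the mitochondrial kinases PDK1 to PDK4 and the phosphatases PDP1 and PDP2 hold opposite ends of that switch. In skeletal muscle Pdk4 is known for its strong induction by fasting and fatty acids, which spares glucose, while Pdk2 is the widespread basal kinase.

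None of the 10 genes passed the test across all genes. Limma on log2(value + 1), with Benjamini-Hochberg adjustment and a threshold of 0.05, called 0 of the 10, against 127 of 23312 genes tested, or 0.545% (92 higher and 35 lower in Ogg1Tg, and 137 and 19 after centring on oxidative phosphorylation genes). The subunit genes Pdha1 and Dlat were under 0.05 before adjustment, 2 of 10, against 11% of all genes. EdgeR on reads recovered from the signal gave 1 and DESeq2 gave 2, and both called 0 of the 10. Over the same 23312 genes edgeR called 99 higher and 25 lower, and DESeq2 called 364 higher and 258 lower. The log2 fold change of Ogg1Tg over Control was below 0 for 8 of the 10, with a median of -0.31 against -0.02 for all genes. That direction was the common one for strongly expressed genes: 52.8% of all tested genes and 71.6% of the 5528 genes with a mean of at least 1000 units lay below 0. In bulk tissue, fewer cells of a type and less RNA per cell cannot be told apart.

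**Figure D1:**
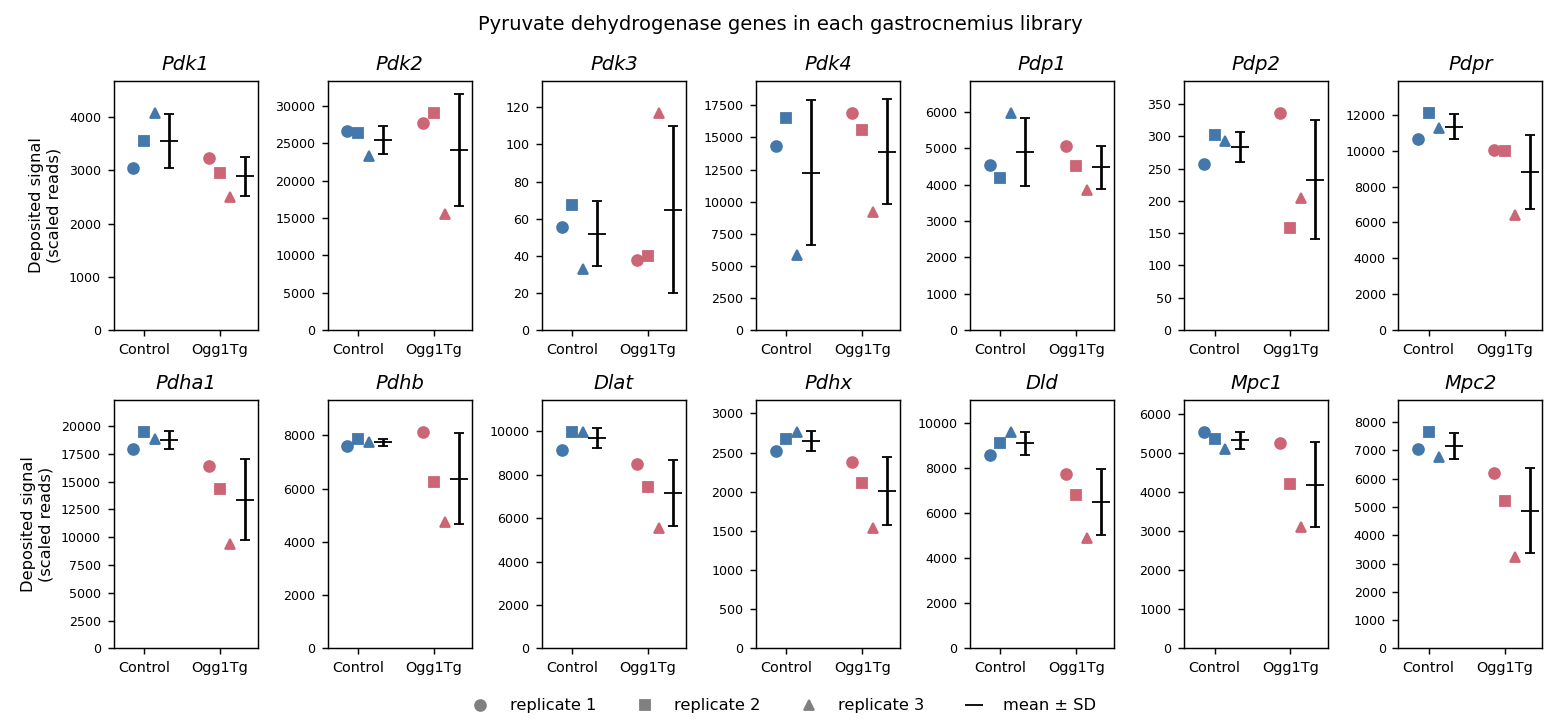
Signal of each gene of the pyruvate dehydrogenase system in every library (deposited signal in units, linear axes from 0), with symbols for replicates 1 to 3 and the mean ± SD beside each group. In the deposited signal all 3 Ogg1Tg points of Pdha1 and Dlat lie below all 3 Control points, while the Pdk2 and Pdk4 points of the groups overlap.

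Within this system, the subunits of the complex itself gave the most uniform picture. Pdha1 (chrX:160122209-160138413, GRCm38, minus strand) encodes the E1 alpha subunit, the target of the kinases. Its signal was 17927, 19453 and 18813 units in Control and 16439, 14311 and 9359 in Ogg1Tg. All 3 Ogg1Tg values lay below the lowest Control value on this scale, and replicate 3 was the lowest. In CPM, the recovered reads scaled to equal totals over named genes, Pdha1 was at 248, 287 and 285 in Control and 264, 209 and 206 in Ogg1Tg, where the groups overlapped. The means were 18731 ± 766 and 13370 ± 3633 units (SD, n = 3), and limma gave a log2 fold change of -0.53 ± 0.21 (SE, 95% interval -1.0 to -0.05) with an adjusted p of 0.400. Without Ogg1Tg replicate 3 the log2 fold change was -0.29 ± 0.10, with an adjusted p of 0.218 from limma.

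Pdhb (chr14:8165996-8173025, minus strand) encodes E1 beta, the partner of E1 alpha in the same heterotetramer. Its signal was 7609, 7856 and 7735 units in Control and 8125, 6251 and 4728 in Ogg1Tg. Unlike Pdha1, it overlapped between the groups, because Ogg1Tg replicate 1 held the highest of all 6 values. The log2 fold change was -0.32 ± 0.19 (limma adjusted p = 0.586).

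Dlat (chr9:50634633-50659780, minus strand) encodes the E2 core, dihydrolipoamide acetyltransferase. It had 9165, 9975 and 9967 units in Control and 8510, 7463 and 5541 in Ogg1Tg. As with Pdha1, every Ogg1Tg library was below every Control library in the deposited signal, but not in CPM, where Ogg1Tg replicate 1 had 137 and Control replicate 1 had 127. The means were 9702 ± 465 and 7171 ± 1506 units (SD, n = 3), a log2 fold change of -0.46 ± 0.17 (95% interval -0.84 to -0.07) with a limma adjusted p of 0.366. Leaving out Ogg1Tg replicate 3 brought it to -0.28 ± 0.10, with an adjusted p of 0.210.

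The remaining subunit genes, outside the 10, were measured beside them. Pdhx, which encodes the E3-binding protein of the core, had 2517, 2672 and 2763 units in Control and 2380, 2117 and 1538 in Ogg1Tg, and its log2 fold change was -0.42 ± 0.17 (limma adjusted p = 0.396). Dld, which encodes the E3 enzyme shared with the oxoglutarate and branched-chain complexes, had 8577, 9124 and 9612 units in Control and 7756, 6833 and 4884 in Ogg1Tg, with a log2 fold change of -0.51 ± 0.18 (limma adjusted p = 0.333). Both had every Ogg1Tg value below every Control value. Of the 5 subunit genes, 4 were thus separated in the same direction in the deposited signal, with none past the adjusted threshold. In CPM, none of the 4 was separated, since Ogg1Tg replicate 1 was above Control replicate 1 for each, and over all 14 genes of the complex, its kinases, phosphatases and carrier the count below Control went from 6 to 0, against 4.71% of all genes and 9.3% of those with a mean of at least 1000 units. In the deposited signal, 2 of the 10 genes had every Ogg1Tg library below Control and 0 had every one above, against 11.3% and 7.03% of all tested genes. The share below was 22.7% among genes with a mean of at least 1000 units. Related lists held such genes too: 4 of 9 for acetyl-CoA use and tricarboxylic acid cycle entry and 13 of 51 for nuclear oxidative phosphorylation. It was 3 of 12 for lipoate synthesis and attachment and 0 of 9 for the related oxoglutarate and branched-chain complexes. Pdha2, the testis form of E1 alpha, was listed at 0 in all 6 libraries.

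**Figure D2:**
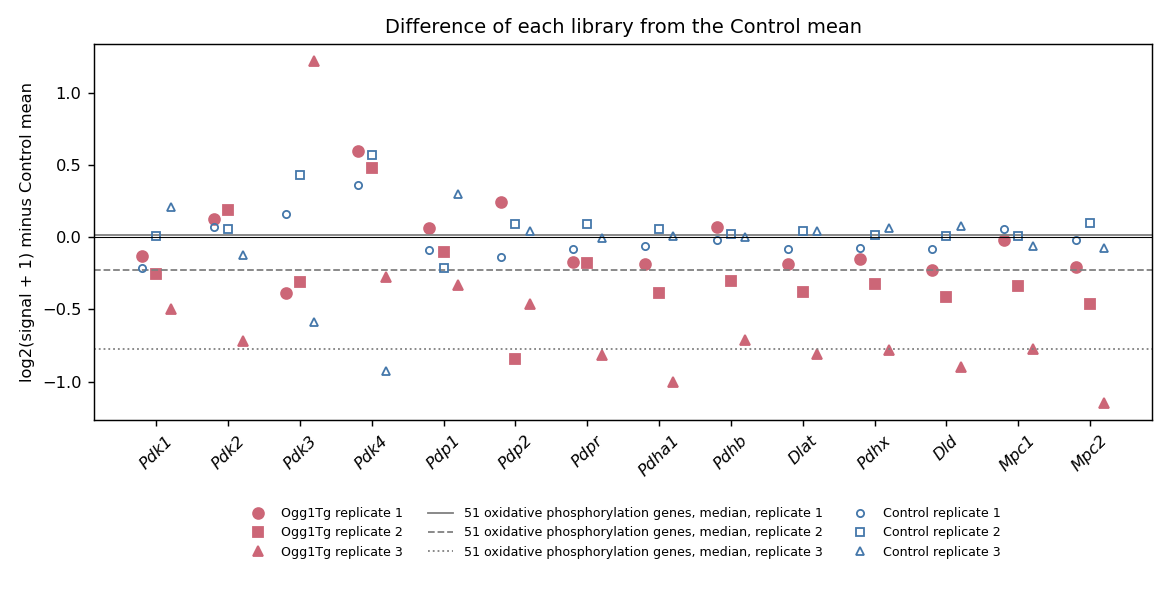
Difference of each library from the Control mean on the log2(signal + 1) scale, with Control as open and Ogg1Tg as filled symbols. The horizontal lines give the median of 51 nuclear oxidative phosphorylation genes in each Ogg1Tg library, at 0.02, -0.23 and -0.77. Most subunit and carrier points lie in the same order of libraries as these medians, with replicate 3 lowest, and Pdk3 departs from it with replicate 3 highest.

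The kinase genes showed no common direction. Pdk2 (chr11:95026258-95041354, minus strand) had 26611, 26395 and 23358 units in Control and 27775, 29002 and 15467 in Ogg1Tg. Ogg1Tg replicates 1 and 2 were above all Control libraries and replicate 3 was below all of them. The means were 25455 ± 1819 and 24081 ± 7486 units (SD, n = 3), with a log2 fold change of -0.13 ± 0.25 and a limma adjusted p of 0.869. Without Ogg1Tg replicate 3 the sign turned, to 0.16 ± 0.10, with an adjusted p of 0.552.

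Pdk4 (chr6:5483351-5496309, minus strand), the kinase gene of the fasting response, had 14345, 16546 and 5876 units in Control and 16871, 15567 and 9228 in Ogg1Tg. Control replicate 3 and Ogg1Tg replicate 3 were the low libraries of their groups, and the groups overlapped. The means were 12256 ± 5633 and 13888 ± 4088 units (SD, n = 3). The log2 fold change was 0.27 ± 0.38 (95% interval -0.60 to 1.13; limma adjusted p = 0.823), an interval that spans a fold of 0.659 to 2.19. The estimate depended on the libraries used. It was -0.20 without Control replicate 3 (limma adjusted p = 0.863) and 0.54 without Ogg1Tg replicate 3 (limma adjusted p = 0.552). Leaving out Control replicate 1 or 2 gave 0.45 or 0.55, and leaving out Ogg1Tg replicate 1 or 2 gave 0.10 or 0.16.

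Pdk1 (chr2:71873224-71903858, plus strand), a kinase gene known as a target of hypoxia signalling, had 3043, 3547 and 4070 units in Control and 3227, 2950 and 2494 in Ogg1Tg. Ogg1Tg replicates 2 and 3 were below all Control libraries, while replicate 1 lay within their range. Its log2 fold change was -0.30 ± 0.15 (limma adjusted p = 0.516). Pdk3 (chrX:93764607-93832201, minus strand), a kinase gene with low expression in muscle, had 55.5, 67.1 and 32.6 units in Control and 37.8, 39.7 and 117 in Ogg1Tg, from 25 to 116 reads per library. Ogg1Tg replicate 3, the library with the high lymphocyte and neutrophil markers, was the highest. The log2 fold change was 0.17 ± 0.49 (limma adjusted p = 0.918), and -0.35 without that library.

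The phosphatase genes were likewise not separated. Pdp1 (chr4:11958184-11966452, minus strand) encodes the catalytic subunit of the calcium-sensitive phosphatase that is abundant in muscle. It had 4544, 4174 and 5954 units in Control and 5053, 4508 and 3851 in Ogg1Tg. Control replicate 3, the library low in Pdk4, was the highest in Pdp1. The log2 fold change was -0.12 ± 0.17 (limma adjusted p = 0.814).

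Pdp2 (chr8:104591451-104599026, plus strand) encodes the other catalytic subunit and had 258, 302 and 292 units in Control and 335, 157 and 205 in Ogg1Tg. The Ogg1Tg values lay on both sides of the Control range, and the log2 fold change was -0.36 ± 0.27 (limma adjusted p = 0.667). Pdpr, which encodes the regulatory subunit of the phosphatase, had 10685, 12081 and 11259 units in Control and 10043, 9999.8 and 6422 in Ogg1Tg. Its Ogg1Tg values were all below Control in the deposited signal, but in CPM Ogg1Tg replicate 1 (161) was above Control replicate 1 (148). It had a log2 fold change of -0.39 ± 0.19 (limma adjusted p = 0.492).

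Pyruvate enters the matrix through a carrier made of MPC1 and MPC2. Mpc1 (chr17:8282904-8297661, plus strand) had 5533, 5345 and 5089 units in Control and 5256, 4207 and 3107 in Ogg1Tg. Ogg1Tg replicates 2 and 3 were below all Control libraries and replicate 1 was within their range, giving a log2 fold change of -0.38 ± 0.18 (limma adjusted p = 0.496). The Mpc1 value is uncertain, because the processed pseudogene Mpc1-ps (chr12:110858565-110858894, minus strand) is 99.7% identical to it over 330 bases and had as much signal, 5994 ± 316 units in Control and 4784 ± 1315 in Ogg1Tg. The sum of both entries was 11316 ± 539 and 8974 ± 2389 units (SD, n = 3).

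Mpc2, the partner gene, had 7049, 7653 and 6782 units in Control and 6192, 5198 and 3224 in Ogg1Tg. All Ogg1Tg libraries were below all Control libraries in the deposited signal. In CPM they overlapped, with Ogg1Tg replicate 1 at 99.3 and Control replicate 1 at 97.6. Its log2 fold change was -0.61 ± 0.22 (limma adjusted p = 0.355). Without Ogg1Tg replicate 3 the log2 fold changes not given above were -0.12 for Pdhb, -0.24 for Pdhx, -0.32 for Dld, -0.19 for Pdk1, -0.02 for Pdp1, -0.30 for Pdp2, -0.18 for Pdpr, -0.18 for Mpc1 and -0.33 for Mpc2. Each was closer to 0 than with all 6 libraries. The genes that overlap others had low signal: in Control, Map3k15, on the opposite strand across the end of Pdha1, had 92.2 units, the antisense gene Gm11513 within Pdk2 had 83.8, and the transcripts 4930506C21Rik across Mpc1 and 9430091E24Rik across Pdpr had 94.7 and 444. Whether reads were counted by strand is not known from the labels.

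**Figure D3:**
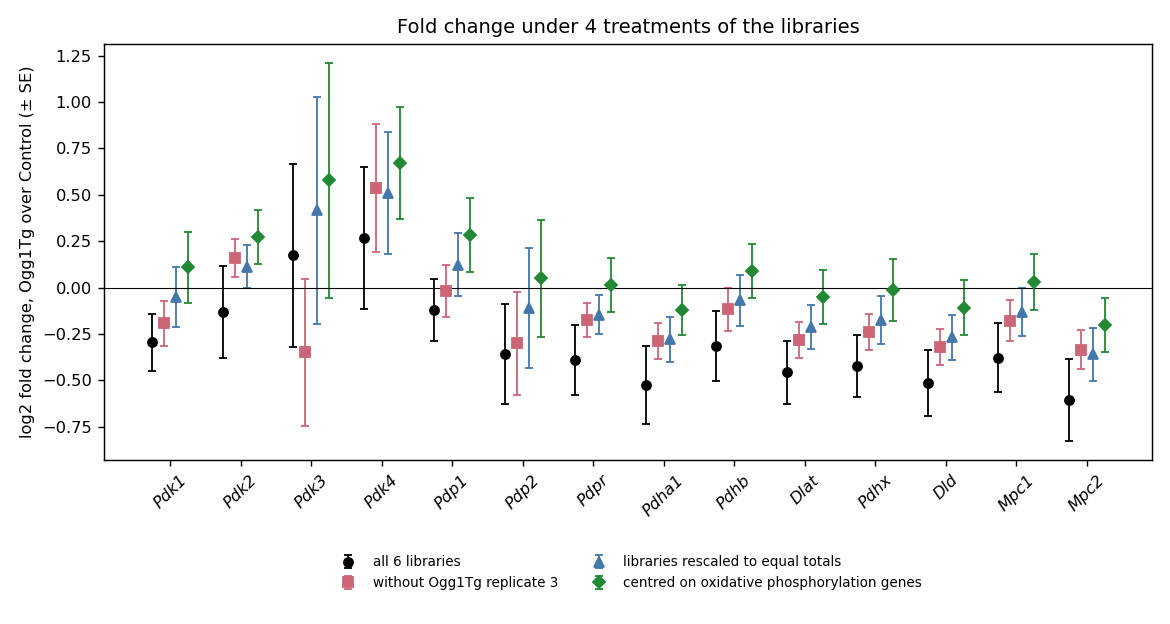
Log2 fold change of Ogg1Tg over Control for each gene with its SE from limma, over all 6 libraries, without Ogg1Tg replicate 3, with libraries rescaled to equal totals and after centring on oxidative phosphorylation genes. Without that library the Pdha1 estimate is -0.29 in place of -0.53 and the Pdk2 estimate is 0.16 in place of -0.13.

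Upstream sequences are shown for Pdha1 and Dlat, the genes among the 10 whose groups were separated in the deposited signal, and for the pair of kinase genes that carried most of the kinase signal, Pdk2 and Pdk4. They are RefSeq sequences on GRCm38.p6, 5′ to 3′ on the minus strand, and run up to the RefSeq start, except that the Pdk4 stretch stops at the edge of the annotated gene. They lie at chrX:160138431-160138680 for Pdha1, chr9:50659781-50660030 for Dlat, chr11:95041372-95041621 for Pdk2 and chr6:5496310-5496528 for Pdk4. Capitals mark matches on either strand to CACGTG (an E-box), CCAAT or GGGCGG (a GC box).
Pdha1: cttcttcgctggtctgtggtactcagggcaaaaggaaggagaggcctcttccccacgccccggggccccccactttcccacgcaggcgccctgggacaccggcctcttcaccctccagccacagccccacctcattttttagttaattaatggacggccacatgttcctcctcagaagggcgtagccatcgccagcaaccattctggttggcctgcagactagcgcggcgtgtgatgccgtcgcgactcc
Dlat: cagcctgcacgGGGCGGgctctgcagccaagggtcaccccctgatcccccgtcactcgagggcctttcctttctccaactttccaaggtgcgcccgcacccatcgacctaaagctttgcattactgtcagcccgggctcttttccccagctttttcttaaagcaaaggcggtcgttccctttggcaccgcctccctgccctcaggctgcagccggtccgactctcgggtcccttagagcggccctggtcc
Pdk2: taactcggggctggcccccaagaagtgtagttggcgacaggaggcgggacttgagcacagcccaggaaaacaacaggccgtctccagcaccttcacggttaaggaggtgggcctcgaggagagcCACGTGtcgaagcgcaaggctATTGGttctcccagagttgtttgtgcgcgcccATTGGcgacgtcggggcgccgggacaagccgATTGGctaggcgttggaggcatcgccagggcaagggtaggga
Pdk4: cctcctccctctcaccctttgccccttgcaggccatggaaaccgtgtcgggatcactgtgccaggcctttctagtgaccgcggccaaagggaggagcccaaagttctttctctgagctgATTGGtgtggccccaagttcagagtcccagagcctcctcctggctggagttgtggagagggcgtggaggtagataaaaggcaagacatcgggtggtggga

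In this set Pdha1 held none of the 3 motifs and Dlat held 1 GC box, 239 bases before its start. Pdk2 held an E-box from -126 to -121 and CCAAT matches at -105, -73 and -42, and Pdk4 held a CCAAT match at -131. Positions are counted from the RefSeq start, which for Pdk4 lies past the end of the stretch shown. The window of another RefSeq start of Pdk2, at chr11:95040876-95041125 inside the annotated gene, held none of the 3 motifs. Windows with these letters are common: of 32851 RefSeq windows of 250 bases, 6.02% held the E-box, 33.9% CCAAT and 32.7% the GC box. The forkhead letters TGTTTAC and TGTTTGC, the estrogen-related receptor letters TGACCTTTG and TNAAGGTCA, the letters TGATGNAA and a spaced direct repeat of AGGTCA were not in any window of the genes described here, against 3.17%, 4.30%, 0.426%, 1.14%, 3.45% and 0.0335% of all windows. This says only that the letters are not in these windows. Of the 10 genes, 9 had a RefSeq window, and Pdp1 did not.

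Divided by exon length, Pdk2 and Pdk4 made up nearly all kinase signal. On the scale of units per kb, the Control level was 8048 ± 575 for Pdk2, 3491 ± 1605 for Pdk4, 457 ± 66.0 for Pdk1 and 20.2 ± 6.85 for Pdk3 (SD, n = 3). Pdk2 stood at the 99.2 percentile of 16724 protein-coding genes. Pdk2 held 65.2%, 61.6% and 77.0% of the kinase signal per kb in Control and 62.7%, 65.5% and 62.0% in Ogg1Tg. Pdk4 held 31.6%, 34.8% and 17.4% in Control and 34.3%, 31.7% and 33.3% in Ogg1Tg. Control replicate 3 stood apart in this make-up, with less Pdk4 than the other 5 libraries. With the length of the principal transcript in place of all exons the Control share was 73.5% for Pdk2 and 21.8% for Pdk4.

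Among the other genes the order in Control, in units per kb, was Pdha1 at 5016 ± 205, Mpc1 at 2556 ± 107, Dld at 2472 ± 141, Pdpr at 2256 ± 140, Pdhb at 2003 ± 31.9, Dlat at 1986 ± 95.2, Pdp1 at 1085 ± 208, Mpc2 at 975 ± 60.7, Pdhx at 674 ± 31.7 and Pdp2 at 49.9 ± 4.08. Neighbours whose difference was within their spread were Mpc1 and Dld, Pdhb and Dlat, and Pdp1 and Mpc2. This order depends on the length used: with the principal transcript Mpc2 came first at 6987, above Pdha1 at 6577, Mpc1 at 5556 and Pdhb at 5111. The place of Mpc1 is uncertain with either length, because the near-identical pseudogene Mpc1-ps had 5994 ± 316 units in Control against 5322 ± 223 for Mpc1. Pdp1 supplied 94.6% to 97.3% of the signal of the catalytic phosphatase genes in all 6 libraries. The ratio of summed kinase to summed phosphatase signal per kb was 12.3, 13.8 and 6.99 in Control and 11.9, 13.6 and 8.85 in Ogg1Tg, so the groups overlapped.

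Ratios within a library do not depend on its scaling. Dlat to Pdhx, both of the E2 core, was 2.93, 3.00 and 2.90 per kb in Control and 2.88, 2.84 and 2.90 in Ogg1Tg. The highest Ogg1Tg ratio, 2.898, was just below the lowest Control ratio, 2.901. How often ratios to Pdhx separate in this way over all genes was not computed. Pdha1 to Pdhb, the E1 partners, was 2.44, 2.56 and 2.52 in Control and 2.09, 2.37 and 2.05 in Ogg1Tg, below Control in each library. Pdk2 to Pdha1 was 1.75, 1.60 and 1.47 in Control and 1.99, 2.39 and 1.95 in Ogg1Tg, and Pdk4 to Pdha1 was 0.851, 0.905 and 0.332 in Control and 1.09, 1.16 and 1.05 in Ogg1Tg. Transcripts of both kinases were thus higher relative to the Pdha1 transcript in every Ogg1Tg library than in Control. The log2 fold change itself was -0.53 for Pdha1, -0.13 for Pdk2 and 0.27 for Pdk4, none past the adjusted threshold. Protein and phosphorylation were not measured here. A ratio to Pdha1 above Control in all 3 Ogg1Tg libraries was found for 3 of the 13 other genes, Pdhb among them, against 33.9% of all genes and 48.9% of genes with a mean of at least 1000 units, so such a ratio was no more frequent here than elsewhere.

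**Figure D4:**
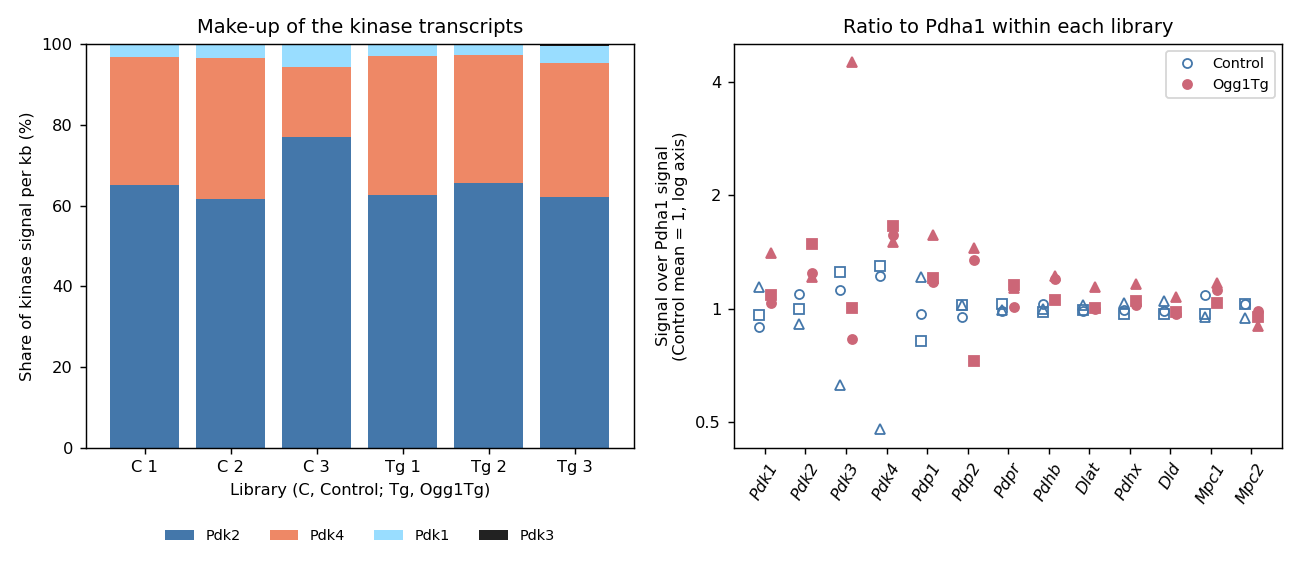
Left, the share of kinase signal per kb held by each kinase gene in every library (%). Right, the ratio of each gene to Pdha1 within each library, with the Control mean set to 1 (log axis). Control replicate 3 has a Pdk4 share of 17.4% against 31.6% to 34.8% in the other 5 libraries, and the Pdk2 and Pdk4 ratios of all Ogg1Tg libraries lie above those of Control.

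Other mitochondrial genes were lower together with the subunit genes, but the fall was not limited to mitochondrial genes. All 12 skeletal muscle fibre markers lay below 0 on the log2 scale. Their median was -0.33, the same to 2 decimals as for the 51 nuclear oxidative phosphorylation genes. By library these fibre markers were at -0.18, 0.11 and -0.79 in Ogg1Tg replicates 1, 2 and 3, so replicate 2 was not lower. Slow fibre markers went the other way, with a median of 0.84. The median of 51 nuclear oxidative phosphorylation genes, as a log2 difference from the Control mean, was 0.02, -0.23 and -0.77 in Ogg1Tg replicates 1, 2 and 3, and the median of the 10 genes was 0.02, -0.31 and -0.61. Of those 51 genes 0 passed limma, with 11 under 0.05 before adjustment, and edgeR called 0. DESeq2 called 2, Cox6a2 higher and Cox8b lower, against 622 of all 23312 genes. The strongest were the ATP synthase genes Atp5b, at 78453 ± 3611 and 70951 ± 18264 units, and Atp5a1, at 62138 ± 2935 and 48062 ± 13073 (SD, n = 3). Relative to that oxidative phosphorylation median, Pdha1 was at -0.03, -0.01 and 0.06 in Control and at -0.20, -0.16 and -0.23 in Ogg1Tg, and Mpc2 was at 0.01, 0.04 and -0.02 in Control and at -0.22, -0.23 and -0.38 in Ogg1Tg. Dld was at -0.05, -0.06 and 0.13 in Control and at -0.25, -0.18 and -0.13 in Ogg1Tg. On that scale Ogg1Tg lay below Control without overlap for these 3 of the 14 genes, and for 1 of the 10, against 2.52% of all genes and 3.56% of those with a mean of at least 1000 units. Dlat, at -0.20, -0.15 and -0.04 in Ogg1Tg, overlapped its Control range of -0.05 to 0.09. The centred fit subtracted another quantity, the median level of the 51 genes in each library, not the median of their differences used above. That level lay at -0.05, -0.29 and -0.87 from the Control mean in Ogg1Tg replicates 1, 2 and 3. In that fit the log2 fold change was -0.12 for Pdha1 and -0.05 for Dlat. With libraries rescaled to equal totals it was -0.28 and -0.21. Those scalings moved the median of all genes from -0.02 to 0.38 and 0.22. Both shift all genes of a library nearly alike, so a gene's distance from the median gene could hardly change. For Pdha1 that distance was -0.50 in each of these fits, which is no separate evidence on Pdha1.

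Slow and fast fibre markers did not move alike. In Ogg1Tg replicates 1, 2 and 3 the slow marker median was 0.84, 1.09 and 0.68 as a log2 difference from the Control mean. For fast markers it was -0.27, 0.12 and -0.87, and for the 10 genes 0.02, -0.31 and -0.61. The 10 slow fibre markers summed to 37567, 81841 and 94374 units in Control and 122407, 156572 and 99352 in Ogg1Tg, 9 of 10 lay above 0 with a log2 median of 0.84, and 0 of 10 passed limma, with 6 under 0.05 before adjustment. EdgeR called 0 and DESeq2 called 3 higher, Tpm3, Tnni1 and Myh7, where DESeq2 called 364 of all 23312 genes higher. Myh7, the slow myosin heavy chain, had 10585, 35642 and 35632 units in Control and 57593, 79545 and 50855 in Ogg1Tg. All Ogg1Tg libraries were above Control. The 10 fast fibre markers, led by Myh4, had a median of -0.39 with 0 passing limma, edgeR or DESeq2 and 0 under 0.05 before adjustment in each. The 8 macrophage markers summed to 3603 to 5016 units in Control and 2625 to 6471 in Ogg1Tg, and the 6 liver markers to 114 to 1797 and 204 to 1941. The 5 brown adipocyte markers summed to 5408 to 6242 units in Control and 3368 to 4634 in Ogg1Tg. That sum is not specific to brown adipocytes, because the list includes Cox8b, also one of the 51 oxidative phosphorylation genes. Of its 4 tested markers 2 lay above 0 and 2 below, 0 passed limma, and DESeq2 called only Cox8b. The part of fibre and cell composition in the values of the complex was not tested.

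The genes around the complex were read from lists by function. For the lipoyl arm, 0 of 12 genes of lipoate synthesis and attachment passed limma, with 2 under 0.05 before adjustment (edgeR 3 and DESeq2 2, neither with a call), and the median was -0.19 on the log2 scale. Their strongest genes were Isca1, at 14085 ± 532 and 10629 ± 2728 units, and Bola3, at 2500 ± 256 and 1747 ± 428 (SD, n = 3), both iron-sulfur cluster genes. Of 5 thiamine supply genes, 0 passed limma, with 2 under 0.05 before adjustment, and the median was 0.41. EdgeR called 0 as well, while DESeq2 called 2 higher, against 364 of all 23312 genes. They were the thiamine transporter gene Slc19a2 and Slc19a1, a member of the same family known as the reduced folate carrier. Slc19a2 was at 442 ± 26.3 and 734 ± 187 units (limma adjusted p = 0.215).

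Among 14 genes of pyruvate formation and its other fates, 1 rose and 0 fell, against 0.395% and 0.15% of all genes. Pck2, the mitochondrial phosphoenolpyruvate carboxykinase gene, had 172, 155 and 208 units in Control and 989, 538 and 808 in Ogg1Tg. Every Ogg1Tg library was above every Control library. The log2 fold change was 2.09 ± 0.24 with a limma adjusted p of 0.00654; the call was lost with no variance trend (0.0959) and without Control replicate 1 (0.0682) or Control replicate 2 (0.071). The list median was -0.27. EdgeR called the same gene alone, and DESeq2 called Ldhd, a D-lactate dehydrogenase gene, lower beside it.

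Of 9 genes of the related oxoglutarate and branched-chain complexes, 0 passed in limma, edgeR and DESeq2, with 0 under 0.05 before adjustment in each, and the median was -0.23. Ogdh, the E1 of the oxoglutarate complex, was at 48496 ± 1982 and 39893 ± 10597 units, and Dlst, its E2, at 10898 ± 769 and 8793 ± 1923 (SD, n = 3). Of 9 genes of acetyl-CoA use and entry to the tricarboxylic acid cycle, 0 passed limma, with 2 under 0.05 before adjustment (edgeR 1 and DESeq2 2, neither with a call), and the median was -0.36. Cs, citrate synthase, was at 33579 ± 1075 and 26726 ± 6101 units (SD, n = 3). These lists lay near the median of the 10 genes.

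The last lists held regulators and co-targets of the kinase genes. Of 20 transcription factor and coactivator genes known to act on them, 0 passed limma, with 2 under 0.05 before adjustment (edgeR 4 and DESeq2 3, neither with a call). The median was -0.22, with Lpin1 at 25765 ± 2507 and 18729 ± 6789 units and the retinoid X receptor gene Rxra at 10365 ± 497 and 7795 ± 2304. Of 21 fasting and fatty acid responsive genes that are known to rise with Pdk4, 1 rose and 0 fell, against 0.395% and 0.15% of all genes, and the median was -0.22. Before adjustment 7 of 21 were under 0.05, against 11% of all genes (edgeR 6 and DESeq2 9). EdgeR called the same gene, and DESeq2 called the related gene Acot1 as well. Acot2, a mitochondrial acyl-CoA thioesterase gene, had 904, 1216 and 885 units in Control and 4471, 2306 and 3186 in Ogg1Tg. All Ogg1Tg libraries were above all Control libraries. Its log2 fold change was 1.69 ± 0.24 with a limma adjusted p of 0.0169; the call was lost with no variance trend (0.205) and without Control replicate 1, 2 or 3 (0.142, 0.0851 and 0.137).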

How the data were processed

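Total RNA from gastrocnemius of 6 mice was isolated with an RNeasy kit and made into NuGen Ovation Universal libraries, per the labels' protocols. HTSeq, SAMtools, Trimmomatic and mm10 are listed in the submitters' processing notes; for aligner, annotation and strand setting, the entry is not given in the sources used. The deposited files are titled FPKM, yet they hold a signal: gene counts that the authors divided by 1 factor per library, since 100% of values were whole multiples of 1 step per library within 0.01 of a read, whatever the gene's length. The step of Ogg1Tg replicate 3 was 1.01, so its recovery is less distinctive. The main test is a linear model on log2 values, since the signal is not a raw count.

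Folds are on the log2(value + 1) scale and understate changes of low genes. Tests covered genes averaging 1 or more and used limma 3.58.1 in R 4.3.3 (variance trend, two-sided, Benjamini-Hochberg adjustment) and called at an adjusted p under 0.05. EdgeR 4.0.16 and DESeq2 1.42.0 were run on recovered reads. Only the limma test was checked on simulated counts, in which no library stood apart. EdgeR and DESeq2 were not checked in this way. The 1824 entries without a gene name, with 2.38% to 3.54% of reads, were left out. Coordinates and lengths came from GENCODE M21 (GRCm38, the same assembly as mm10). The labels do not mention litters or separate cultures, so p-values measure the spread between these samples. No library duplicated another (chi-square per gene of at least 12.9). Named were the 10 genes, the other subunit and carrier genes, up to 4 called genes of each list or, with none called, its 2 strongest. Genes named for a DESeq2 call alone were picked after their values were seen. The genes and lists were chosen with earlier results of these data known. The letters CCAAT and GGGCGG were added after the sequences were read. Some genes that this rule names are not reported here.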

Additional observations from a re-analysis of the deposited data

How the results depend on the processing

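Of 20 alternatives, 20 called 0 of the 10 genes, and adjusted p-values of the 14 complex, kinase, phosphatase and carrier genes ran from 0.151 to 0.992. Pdha1 and Dlat stayed below 0 in all 20, from -0.69 to -0.12 and from -0.59 to -0.05. Of 280 fold changes computed for the 14 genes, 27 turned sign. Quantile normalization gave 0.17 for Pdk2 and 0.032 for Pdp1. Centring on oxidative phosphorylation genes gave 0.11 for Pdk1, 0.27 for Pdk2, 0.28 for Pdp1, 0.049 for Pdp2, 0.090 for Pdhb, 0.028 for Mpc1 and 0.014 for Pdpr. With each library left out in turn, Pdk2 ran from -0.29 to 0.16, Pdk3 from -0.35 to 0.45, Pdk4 from -0.20 to 0.55 and Pdp1 from -0.23 to 0.029; the sign turned without Ogg1Tg replicate 3 for Pdk2 (0.16) and Pdk3 (-0.35), and without Control replicate 3 for Pdk3 (-0.12), Pdk4 (-0.20) and Pdp1 (0.029). The other scalings were chosen after seeing the data. Equal totals gave 0.11 for Pdk2 and 0.12 for Pdp1, and centring on fibre genes gave 0.044 for Pdk1, 0.21 for Pdk2, 0.22 for Pdp1 and 0.024 for Pdhb. Without Ogg1Tg replicate 3 as well, equal totals gave 0.23 for Pdk2, -0.28 for Pdk3 and 0.053 for Pdp1, and oxidative phosphorylation centring gave 0.33 for Pdk2, -0.18 for Pdk3, 0.15 for Pdp1 and 0.053 for Pdhb. The median of all genes was 0.22 with equal totals, 0.38 and 0.31 with oxidative phosphorylation and fibre centring, and -0.02 as deposited. Genes called numbered 127 in the main test, 46 with no variance trend, 622 with DESeq2, and 35 to 425 when each library was left out in turn, with 35 without Control replicate 3, 42 and 43 without Control replicates 2 and 1, 62 without Ogg1Tg replicate 1, 194 without Ogg1Tg replicate 2 and 425 without Ogg1Tg replicate 3. They numbered 357 and 628 without Ogg1Tg replicate 3 after equal totals and after oxidative phosphorylation centring. The causes were not tested. The labels give no pairing of same-numbered samples. Their deviations from the group means had correlations of -0.05, -0.01 and 0.03, which cannot decide whether they were paired. A replicate block called 102 genes and 0 of the 10. Depth limits Pdk3 most, at 25 to 116 reads per library.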

Other observations

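Slc19a1, known as the reduced folate carrier gene and held in the thiamine supply list, was named after its values were seen. It had 237, 165 and 164 units in Control and 351, 385 and 284 in Ogg1Tg, and all Ogg1Tg libraries were above Control, with a log2 fold change of 0.85 ± 0.21 that did not pass in limma (adjusted p = 0.182) and was called by DESeq2. Slc16a3, the lactate and pyruvate exporter of fast fibres, also named after its values were seen, had 14169, 10068 and 9476 units in Control and 5237, 9264 and 2838 in Ogg1Tg. Its groups did not overlap, and its log2 fold change of -1.10 ± 0.37 did not pass either (limma adjusted p = 0.321).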
